A study of Mus musculus with 27 samples.

Results

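The genes described here were expressed in mouse embryonic fibroblasts (MEFs) and in induced pluripotent stem cells (iPSCs) and were lower in the cells between them, pre-iPSCs. A gene was taken as a member where, in each of the 2 expression tables, the FPKM value plus 1 of the MEF library and that of the iPSC library were both at least 2 times the FPKM value plus 1 of the pre-iPSC library. FPKM is a measure of RNA level corrected for gene length and sequencing depth. The rule found 71 of 20156 genes. The mirror rule, with pre-iPSCs at least 2 times as high as both, found 404 genes. The members were thus chosen by their expression values in the 6 RNA-seq libraries, and the lower level in pre-iPSCs is given below as a description, without a test.

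Pre-iPSCs are partially reprogrammed cells. They have lost fibroblast shape and grow as compact colonies, but they have not switched on the endogenous pluripotency network and still depend on the introduced factors. At promoters, trimethylation of histone H3 at lysine 4 (H3K4me3) accompanies transcription start sites (TSSs) in use. Trimethylation at lysine 27 (H3K27me3), laid down by Polycomb repressive complexes, accompanies repression at CpG-rich promoters, and trimethylation at lysine 9 (H3K9me3) marks heterochromatin.

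MEFs came from e13.5 embryos that were hemizygous for an Oct4-GFP transgene and a Rosa26 allele, from Oct4-GFP males (CBA/CaJ and C57BL/6J) and 129Sv/Jae females. Pre-iPSCs and iPSCs were made from such MEFs by retrovirus with the Yamanaka factors, as 2 stable pre-iPSC clones with their corresponding iPSCs, and no label ties a library to its clone. For RNA-seq, MEFs were cultured for at most 3 passages and pre-iPSCs and iPSCs for 6 passages. No passage is given for the cells of the nucleosome libraries. Per the methods both reprogrammed cell types were grown in serum and LIF on mitomycin C-inactivated MEF feeders. Each cell type had 2 RNA-seq libraries and 2 libraries each of H3, H3K4me3 and H3K27me3 nucleosomes, and 1 of H3K9me3, so every cell type below has n = 2 unless stated. All cells shared the MEF background, and all iPSC and pre-iPSC libraries can hold feeder RNA and chromatin.

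The libraries followed their labels: 24 of the 25 listed pluripotency genes were higher in iPSCs than in MEFs and 25 of the 28 listed fibroblast markers were lower (limma, adjusted p below 0.05 and 2-fold). Reads in the nucleosome calls numbered 67362868 to 108211816 per H3 library and 12007350 to 15222040 per mark library. Of the H3 libraries, replicate 1 of pre-iPSCs and replicate 1 of iPSCs stood apart from the others, with far more H3 at GC-rich promoters. MNase digestion, which frees the nucleosomes, was run with other amounts and times in MEFs than in pre-iPSCs and iPSCs. The mark libraries were made from nucleosomes prepared in the same way. For H3 and for every mark, a difference from MEFs therefore cannot be told apart from one of digestion. The H3 tests against MEFs are given with and without replicate 1 of the other cell type.

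The promoters of the members were GC-rich. Within 500 bp of the TSS their median GC content was 61.5%, against 56.0% over all genes and 59.4% over the 12401 expressed genes (averaging 0.5 FPKM or more). By CpG content, 49 of the 71 members (69.0%) were high-CpG promoters (a 500-bp window with a CpG ratio above 0.75 and GC above 55%), 16 were intermediate and 6 low. High-CpG promoters made up 49.3% of all genes and 71.6% of the expressed genes. The GC box GGGCGG, searched on both strands in the 250 bases upstream of the TSS, was present in 55 members (77.5%), against 45.8% of all genes and 62.2% of expressed genes. CCAAT was present in 27 members (38.0%) against 35.5% of all genes. TATAAA was present in 4 members, Lpl, Mycl1, Rnf19b and Smoc1, or 5.63% against 11.7% of all genes and 6.19% of expressed genes. The sterol element TCACNCCAC was found in 0 of 71, against 0.977% of all genes, the E-box CACGTG in 4 against 6.91%, and the cAMP element TGACGTCA in 2, Odz3 and S1pr2, against 2.19%. The median gene length of the members was 24.6 kb, against 16.3 kb over all genes and 21.2 kb over expressed genes. The members lay on most chromosomes, with the most on chromosome 8, which held 9, and on chromosomes 3 and 15, which held 7 each.

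The 250 bases upstream of the TSS are shown for 3 members that stood out in the mark and expression results below: Mxra7 and Spsb1 had the lowest adjusted p for a rise of H3K27me3 from MEFs to pre-iPSCs within 1000 bp of the TSS, and Slc38a4 the largest dip in expression. A link between these sequences and those results was not tested. They were read from the mouse genome build NCBIM37 (mm9), the build of the files, on the strand of the gene, and capitals mark GGGCGG or its complement CCGCCC. Mxra7 was read from chr11:116689361-116689610 (minus strand), Spsb1 from chr4:149329116-149329365 (minus strand) and Slc38a4 from chr15:96886388-96886637 (minus strand).
Mxra7: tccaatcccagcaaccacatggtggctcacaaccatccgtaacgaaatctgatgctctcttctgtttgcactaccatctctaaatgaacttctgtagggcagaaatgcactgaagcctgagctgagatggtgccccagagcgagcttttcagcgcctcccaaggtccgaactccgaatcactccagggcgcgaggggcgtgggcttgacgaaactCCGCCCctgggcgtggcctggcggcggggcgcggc
Spsb1: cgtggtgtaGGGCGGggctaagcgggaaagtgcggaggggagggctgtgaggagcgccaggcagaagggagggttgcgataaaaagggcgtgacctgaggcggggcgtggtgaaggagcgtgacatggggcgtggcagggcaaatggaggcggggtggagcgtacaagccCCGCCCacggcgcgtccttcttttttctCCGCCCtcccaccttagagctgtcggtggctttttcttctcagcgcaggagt
Slc38a4: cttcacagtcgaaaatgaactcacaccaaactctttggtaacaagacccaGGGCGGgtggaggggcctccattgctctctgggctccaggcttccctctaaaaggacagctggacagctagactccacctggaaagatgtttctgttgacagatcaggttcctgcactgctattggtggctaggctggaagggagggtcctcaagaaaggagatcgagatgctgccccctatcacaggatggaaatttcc

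The upstream sequences are also shown of the members that act next to each other in cholesterol synthesis, Sc4mol at chr8:67212376-67212625 (minus strand) and Nsdhl at chrX:70163610-70163859 (plus strand). Both held more than 1 CCAAT box, as did Sox4, Ccrn4l, Fzd7, Ier5l, Cotl1 and Fmnl3. The share of all genes with more than 1 was not counted. Capitals mark CCAAT or its complement ATTGG, of which Sc4mol had 3 and Nsdhl 2. GC boxes in these sequences were left in lower case.
Sc4mol: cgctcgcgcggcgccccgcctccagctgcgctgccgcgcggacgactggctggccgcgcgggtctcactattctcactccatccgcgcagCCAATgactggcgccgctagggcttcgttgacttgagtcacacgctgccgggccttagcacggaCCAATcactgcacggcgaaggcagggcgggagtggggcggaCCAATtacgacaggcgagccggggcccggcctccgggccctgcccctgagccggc
Nsdhl: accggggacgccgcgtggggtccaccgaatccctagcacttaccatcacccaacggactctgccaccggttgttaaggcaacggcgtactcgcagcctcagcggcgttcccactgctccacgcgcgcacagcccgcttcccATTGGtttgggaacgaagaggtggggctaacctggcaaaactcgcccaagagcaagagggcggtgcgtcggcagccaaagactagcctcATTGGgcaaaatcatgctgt

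Over the 71 members the median level was 17.2 and 15.1 FPKM for the MEF libraries, 2.15 and 1.75 FPKM for pre-iPSCs and 10.9 and 9.64 FPKM for iPSCs. Summed over the members, the levels were 1937 and 2384 FPKM for MEFs, 366 and 258 for pre-iPSCs and 1803 and 1416 for iPSCs. In bulk libraries, fewer cells that express a gene and less RNA per cell cannot be told apart. Members were ranked by a score, the smallest of their 4 ratios to the pre-iPSC library (each value plus 1). At the edge of the rule the scores were 2.00 for Nsdhl and 2.00 for Mycl1 just inside it, and 1.99 for Cd276, 1.99 for Uhrf2 and 1.98 for Cmklr1 just outside.

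**Figure D1:**
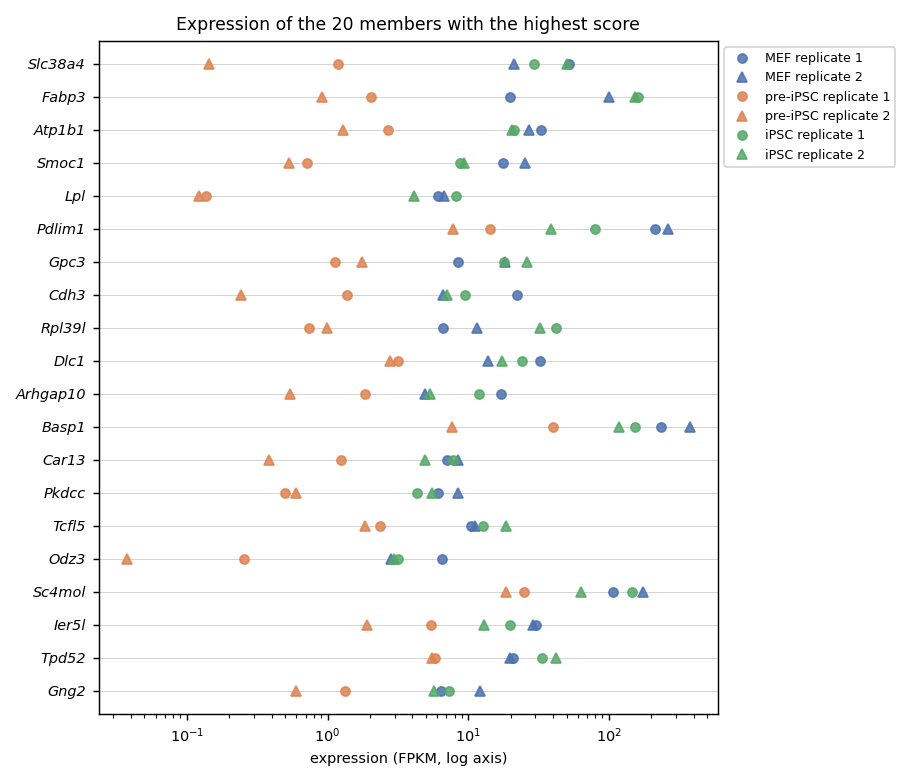
Expression in FPKM (log axis) of the 20 members with the highest score, in order of score. Each point is 1 library, coloured by cell type and with circles for replicate 1 and triangles for replicate 2, and both pre-iPSC points lie left of the 4 others in every gene, which the membership rule fixed.

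Transport across the cell membrane was represented by 4 members, with a median iPSC level of 0.69 times the MEF level. Slc38a4, a sodium-coupled amino acid transporter gene that is imprinted and expressed from the paternal allele, had the highest score, 13.9, and lies at chr15:96825254-96886387. It was at 52.1 and 21.04 FPKM for MEFs, 1.19 and 0.144 for pre-iPSCs and 29.6 and 49.98 for iPSCs, so the pre-iPSC libraries were low by more than an order of magnitude and the MEF and iPSC libraries overlapped. Atp1b1, the beta subunit of the sodium pump, was at 32.9 and 27.1 FPKM for MEFs, 2.67 and 1.297 for pre-iPSCs and 20.99 and 20.4 for iPSCs. Slc6a9, a glycine transporter, was at 12.6 and 5.19 FPKM for MEFs, 1.397 and 1.42 for pre-iPSCs and 4.002 and 3.92 for iPSCs, and here iPSCs lay below both MEF libraries. Slc38a4 was the 1 member among 29 listed imprinted genes. Of the 22 others that could be tested 2 rose and 5 fell between MEFs and pre-iPSCs, against 7.39% and 9% of all genes tested (limma). Between pre-iPSCs and iPSCs 1 rose and 2 fell, against 3.91% and 4.71%.

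Lipid and sterol metabolism held 8 members: Fabp3, Lpl, Mogat2, Hsd17b11, Pla2g15, Cpt1a, Sc4mol and Nsdhl. Fabp3, a cytosolic carrier of fatty acids, was at 19.9 and 100.02 FPKM for MEFs, 2.03 and 0.909 for pre-iPSCs and 161 and 152 for iPSCs. It was the strongest of the lipid genes in iPSCs, above both MEF libraries. Lpl, the lipoprotein lipase that frees fatty acids from triglyceride particles, was at 6.11 and 6.72 FPKM for MEFs, 0.137 and 0.122 for pre-iPSCs and 8.22 and 4.11 for iPSCs, near the floor in pre-iPSCs. Sc4mol, the sterol C4-methyl oxidase, was at 107 and 176 FPKM for MEFs, 24.9 and 18.5 for pre-iPSCs and 145 and 63.6 for iPSCs. Nsdhl, the dehydrogenase of the following step, was at 26.1 and 53.9 FPKM for MEFs, 12.3 and 7.77 for pre-iPSCs and 29.2 and 16.6 for iPSCs, and its 16.6 FPKM in an iPSC library lay close to the 12.3 FPKM of a pre-iPSC library. The dip was shallow for Nsdhl, which stood at the edge of the rule.

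Few of the other genes of the cholesterol pathway passed the threshold. Of the 20 listed cholesterol genes that were not members, 0 rose and 3 fell between MEFs and pre-iPSCs (Cyp51, Sc5d and Sqle), against 7.39% of all genes tested that rose and 9% that fell (limma, adjusted p below 0.05 and 2-fold). At an unadjusted p below 0.05, 1 was higher and 8 were lower, beside 3892 of all 12401 genes tested in either direction (limma). Between pre-iPSCs and iPSCs 0 of the 20 rose and 1 fell (Ebp), against 3.91% and 4.71% of all genes tested. There, 5 were higher and 1 lower at an unadjusted p below 0.05, beside 2684 of the 12401 genes in either direction (limma). Between MEFs and iPSCs 1 rose (Dhcr7) and 3 fell, among them Hsd17b7 and Sc5d, against 10.3% and 15.5% of all genes tested. The summed level of all 22 listed genes was 728 and 771 FPKM for MEFs, 474 and 400 FPKM for pre-iPSCs and 717 and 581 FPKM for iPSCs.

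Matrix, secreted and cell-surface genes made up 11 members. Smoc1, a secreted calcium-binding matrix protein, was at 17.6 and 25.1 FPKM for MEFs, 0.712 and 0.534 for pre-iPSCs and 8.67 and 9.26 for iPSCs. Gpc3, a heparan sulphate proteoglycan held at the cell surface, was at 8.47 and 18.3 FPKM for MEFs, 1.13 and 1.75 for pre-iPSCs and 17.9 and 25.96 for iPSCs, with iPSCs as high as MEFs. Mfap4, a microfibril-associated protein, was at 25.02 and 51.99 FPKM for MEFs, 2.46 and 0.561 for pre-iPSCs and 8.32 and 8.95 for iPSCs. Adm, which encodes the peptide hormone adrenomedullin, was at 15.9 and 29.4 FPKM for MEFs, 1.46 and 3.004 for pre-iPSCs and 7.84 and 9.45 for iPSCs. Smoc1, Mfap4 and Adm thus reached a lower level in both iPSC libraries than in either MEF library. Pkdcc, a secreted kinase, was at 6.08 and 8.47 FPKM for MEFs, 0.501 and 0.595 for pre-iPSCs and 4.32 and 5.56 for iPSCs, and Odz3, a teneurin, at 6.51 and 2.83 FPKM for MEFs, 0.253 and 0.0375 for pre-iPSCs and 3.18 and 2.98 for iPSCs. Adm was the 1 member among 21 listed glycolysis and hypoxia genes. Of the 20 others, 6 rose and 0 fell between MEFs and pre-iPSCs, against 7.39% and 9% of all genes tested (limma).

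Genes of the cytoskeleton and its regulation numbered 9. Pdlim1, a PDZ and LIM domain protein of stress fibres, was at 211 and 264 FPKM for MEFs, 14.3 and 7.85 for pre-iPSCs and 79.8 and 38.6 for iPSCs. Basp1, a membrane-bound signalling protein abundant in growing axons, was at 236 and 376 FPKM for MEFs, 39.9 and 7.65 for pre-iPSCs and 154 and 118 for iPSCs. Both were among the more abundant members in MEFs, and their iPSC levels were lower than any MEF library. Dlc1, a GTPase-activating protein that acts on the actin cytoskeleton, was at 32.4 and 13.8 FPKM for MEFs, 3.14 and 2.79 for pre-iPSCs and 24.3 and 17.4 for iPSCs, and Arhgap10, of the same enzyme class, at 17.2 and 4.93 FPKM for MEFs, 1.86 and 0.543 for pre-iPSCs and 11.9 and 5.37 for iPSCs. For both, the iPSC values lay within the range of the MEF values. Cell junctions and intermediate filaments had 3 members. Cdh3, P-cadherin, was at 22.1 and 6.62 FPKM for MEFs, 1.37 and 0.243 for pre-iPSCs and 9.47 and 7.04 for iPSCs, and Krt18, a keratin of simple epithelia, at 4.42 and 5.08 FPKM for MEFs, 1.06 and 0.837 for pre-iPSCs and 5.33 and 9.64 for iPSCs. Krt18 has many processed pseudogenes. Only uniquely mapped reads were kept, so reads that match a pseudogene equally well would be lost, and the level of Krt18 is uncertain. Of the 13 other genes of the epithelial list 12 were tested. Between MEFs and pre-iPSCs 8 of them rose and 1 fell, against 7.39% and 9% of all genes tested (limma).

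Transcription and chromatin factors made up 8 members, among them Tbx3, Sox4, Tgif1, Tcfl5, Mycl1 and Phf17, and had the highest median ratio of iPSC to MEF level of the role groups, 1.31. Tbx3, a T-box factor used in mesoderm, limb and pluripotent cells, was at 6.45 and 3.64 FPKM for MEFs, 1.14 and 0.626 for pre-iPSCs and 7.86 and 17.5 for iPSCs. It was the 1 member of the pluripotency list. Of the 24 others 10 rose and 0 fell between MEFs and pre-iPSCs, against 7.39% and 9% of all genes tested (limma). The 10 include Pou5f1, Sox2 and Klf4, which were among the introduced factors. FPKM values do not tell RNA of the introduced copies from that of the endogenous genes. Tgif1, a homeobox repressor of TGF-beta signalling, was at 80.4 and 76.1 FPKM for MEFs, 33.03 and 26.2 for pre-iPSCs and 110.2 and 76.4 for iPSCs. Tcfl5, a basic helix-loop-helix factor, was at 10.5 and 11.2 FPKM for MEFs, 2.36 and 1.84 for pre-iPSCs and 12.8 and 18.5 for iPSCs. Phf17, a PHD-finger subunit of a histone acetyltransferase complex, was at 16.2 and 21.3 FPKM for MEFs, 6.44 and 4.32 for pre-iPSCs and 52.9 and 49.7 for iPSCs, which is a rise over MEFs in both iPSC libraries. Mycl1, a member of the Myc family, was at 3.17 and 2.06 FPKM for MEFs, 0.388 and 0.529 for pre-iPSCs and 2.63 and 2.26 for iPSCs, low throughout.

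Other named members had varied roles. Car13, a cytosolic carbonic anhydrase, was at 7.02 and 8.41 FPKM for MEFs, 1.25 and 0.383 for pre-iPSCs and 7.804 and 4.91 for iPSCs. Tpd52, a vesicle-trafficking protein, was at 20.7 and 19.7 FPKM for MEFs, 5.85 and 5.52 for pre-iPSCs and 33.2 and 41.9 for iPSCs. Gng2, a G-protein gamma subunit, was at 6.38 and 12.2 FPKM for MEFs, 1.34 and 0.598 for pre-iPSCs and 7.31 and 5.76 for iPSCs. Tpd52 was higher in iPSCs than in MEFs in both tables. Ier5l, an immediate-early response family member, was at 30.3 and 28.7 FPKM for MEFs, 5.42 and 1.92 for pre-iPSCs and 19.7 and 12.8 for iPSCs. Rpl39l, a ribosomal protein L39-like gene, was at 6.58 and 11.5 FPKM for MEFs, 0.741 and 0.993 for pre-iPSCs and 42.2 and 32.2 for iPSCs. The study kept only uniquely mapped reads, so reads that match Rpl39 copies equally well would be lost, and the level of Rpl39l is uncertain. Srxn1, the sulfiredoxin that reactivates oxidised peroxiredoxins, was at 19.5 and 15.9 FPKM for MEFs, 7.798 and 5.34 for pre-iPSCs and 16.8 and 17.3 for iPSCs. Of the 12 other genes of the oxidative stress and metallothionein list, 1 rose and 0 fell between MEFs and pre-iPSCs, against 7.39% and 9% of all genes tested (limma). Nt5dc2, a 5′-nucleotidase domain protein, was at 83.95 and 98.4 FPKM for MEFs, 37.2 and 40.4 for pre-iPSCs and 236 and 101 for iPSCs and thereby had one of the highest iPSC levels.

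Expression in iPSCs was also compared with that in MEFs. The rule was applied to the same values and limits which ratios of iPSC to MEF a member can have, so the members' counts, median and single values are given as a description, without p-values. Of 12401 genes tested, 10.3% were higher and 15.5% lower in iPSCs (limma on log2(FPKM + 1) with the table as a term, adjusted p below 0.05 and at least 2-fold). Of the 71 members, 5 were higher and 11 were lower, and the median log2 difference was -0.47 against -0.14 over all genes tested. Those that rose included Rpl39l, with a log2 difference of 1.96 (SE 0.40), Bcar3 at 1.52 (SE 0.35), Phf17 at 1.41 (SE 0.37) and Mtap7d3 at 1.21 (SE 0.32). Bcar3, a signalling adaptor, was at 3.82 and 2.35 FPKM for MEFs, 0.753 and 0.108 for pre-iPSCs and 13.2 and 8.38 for iPSCs, and Mtap7d3, a microtubule-associated protein, at 1.51 and 1.22 FPKM for MEFs, 0.0580 and 0.0517 for pre-iPSCs and 5.12 and 3.88 for iPSCs. For these 4 genes the iPSC libraries lay above the MEF libraries, with no overlap.

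The largest fall from MEFs to iPSCs was that of Kdelr3, a receptor that returns proteins to the endoplasmic reticulum, with a log2 difference of -3.02 (SE 0.50). It was at 85.98 and 252 FPKM for MEFs, 6.803 and 5.35 for pre-iPSCs and 18.5 and 16.1 for iPSCs. Pdlim1 differed by -2.07 (SE 0.43) and Mfap4 by -1.95 (SE 0.53). Mxra7, a matrix-remodelling associated gene, differed by -1.86 (SE 0.39) and was at 27.5 and 38.3 FPKM for MEFs, 3.45 and 2.77 for pre-iPSCs and 9.86 and 6.85 for iPSCs. Fmnl3, an actin-nucleating formin, differed by -1.50 (SE 0.37) and was at 21.9 and 16.9 FPKM for MEFs, 2.68 and 0.988 for pre-iPSCs and 6.95 and 5.42 for iPSCs. The remaining members that fell were Rasl11b, Khdrbs3, Steap1, Spsb1, Adm and Vash2, with log2 differences from -1.43 to -1.17. The calls depended on the libraries, for members and for genes at large. Without iPSC replicate 1, and without iPSC replicate 2, fewer of both were called. Fewer members were also called lower without MEF replicate 2 and without either pre-iPSC library. The members' median log2 difference was -0.30 without iPSC replicate 1 and -0.49 without iPSC replicate 2, against -0.16 and -0.18 over all genes tested. It was -0.39 without MEF replicate 1 and -0.47 without MEF replicate 2, against -0.14 and -0.13. Quantile normalization moved the median of all genes from -0.14 to 0.05 and gave 8 members higher and 4 lower, with 1639 genes higher and 1715 lower in all against 1279 and 1927 as deposited.

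The level of the members was set beside that of 28 fibroblast marker genes, which MEF feeder cells could also bring into the libraries. They include collagens, Vim and Thy1, and none was a member. In iPSCs the markers were at a median of 5.33% of the MEF level in the first table and 8.59% in the second, and 23 and 22 of the 28 were below 20%. The members were at a median of 70.6% and 75.4%, with ranges of 12.4% to 1221% and 6.39% to 480%. Below 20% lay 1 member in the first table and 4 in the second. All 71 members lay above the marker median in the first table and 70 in the second, Kdelr3 being the exception. The share of all genes above it is not given. Over the 12401 genes tested the median log2 difference between MEFs and iPSCs was -0.14, against -0.47 over the members. The median of genes at large thus stood nearer to the MEF level than that of the members. Rises and falls can cancel in these medians, so they do not give how far single genes stood from MEFs. The rule required members to be at least 2 times as high in iPSCs as in pre-iPSCs and the markers were not chosen so, and the gap between members and markers is therefore not independent of the rule. The iPSC level was above the MEF level in both tables for 16 members, among them Bcar3, Fabp3, Gpc3, Hsd17b11, Krt18, Mapk12, Mtap7d3, Nt5c2, Nt5dc2, Phf17, Rpl39l, Tbx3, Tcfl5, Tgif1 and Tpd52. For this count too, the share of all genes is not given.

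**Figure D2:**
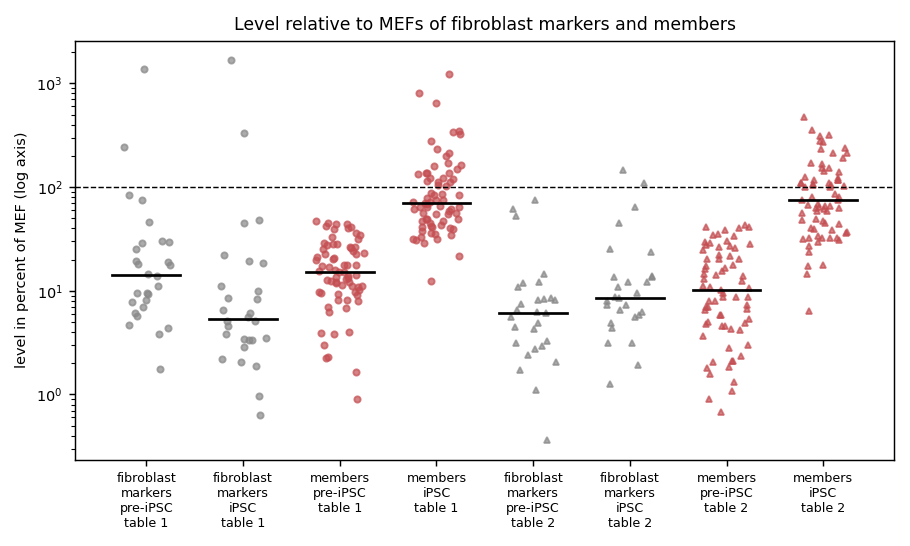
Level in pre-iPSCs and in iPSCs as a percentage of the MEF level of the same table (log axis), for the 28 fibroblast markers (grey) and the 71 members (red). Each point is 1 gene, the bars are medians and the dashed line is 100%; the members' iPSC medians of 70.6% and 75.4% stand above the marker medians of 5.33% and 8.59%.

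The markers were not uniform. Their iPSC level ran from 0.637% of MEF (Lox) to 1691% (Lum) in the first table and from 1.26% (S100a4) to 147% (Lum) in the second. Lum and Dcn were the markers above the member median in each table. Lum was at 0.348 and 5.84 FPKM for MEFs and 5.88 and 8.59 FPKM for iPSCs, and Dcn at 9.005 and 36.6 FPKM for MEFs and 30.2 and 40.5 FPKM for iPSCs, so both were as high in iPSCs as in the MEFs measured. The feeders were inactivated MEFs, whose own expression was not measured. In pre-iPSCs, grown on feeders too, the marker medians were 14.1% and 6.17%, and the member medians 15.3% and 10.2%. The markers stood higher in iPSCs than in pre-iPSCs in 3 of 28 cases in the first table and in 21 of 28 in the second. Summed, they were at 13510 and 20355 FPKM for MEFs, 1955 and 1807 FPKM for pre-iPSCs and 743 and 1061 FPKM for iPSCs, with none listed at 0 in any library. Between pre-iPSCs and iPSCs 0 markers rose and 2 fell (limma), against 3.91% and 4.71% of all genes tested. At an unadjusted p below 0.05, 0 were higher and 6 lower, beside 2684 of the 12401 genes in either direction (limma). Between MEFs and pre-iPSCs 23 markers fell, against 9% of all genes tested.

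Taking the marker median share of the MEF value from each iPSC value left 46 of the 71 members within the rule, and taking the upper quartile of the markers, 12.9% and 13.7%, left 36. Among the 25 that were lost at the median share were Kdelr3, Pdlim1, Mxra7, Fmnl3, Adm, Nsdhl, Slc6a9 and Srxn1. Slc38a4, Fabp3, Atp1b1, Smoc1, Lpl, Gpc3, Cdh3 and the rest of the 20 highest scores were kept at both shares, other than Pdlim1. The pre-iPSC values were left uncorrected, so that the subtraction could only remove members. It reapplied the rule to the values that had chosen the members. Keeping high scores and losing genes at the edge was therefore largely set by the score, and a feeder origin was not tested. It was added after the data had been seen.

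H3K4me3 within 500 bp of the TSS was tested in 69 of the members and 14874 genes (edgeR quasi-likelihood test on the reads, adjusted p below 0.05). Levels are given as RPKM, reads corrected for the length of the window and for the mapped reads of the library. Between MEFs and pre-iPSCs 0 members rose and 0 fell, against 1.53% and 0.323% of all genes tested; 10 of the 69 members and 2191 of the 14874 genes had an unadjusted p below 0.05, and DESeq2 called 0 members. Between pre-iPSCs and iPSCs 0 genes were called in all, with 5 of the 69 members and 1080 of the 14874 genes at an unadjusted p below 0.05, and 0 members by DESeq2. The members' median was 1.56 and 1.21 RPKM for MEFs, 1.04 and 0.909 RPKM for pre-iPSCs and 1.30 and 0.921 RPKM for iPSCs. Over all genes it was 1.22 and 0.955 RPKM, 0.858 and 0.714 RPKM, and 0.930 and 0.789 RPKM, so the lower median in pre-iPSCs was shared by genes at large. Both pre-iPSC libraries lay below the 4 others in 5 members (7.04%; Car13, Mtap7d3, Nt5c2, Pkdcc and Slc38a4), against 11.1% of all genes, and above them in 1 (Tcfl5), against 2.13%. With a threshold of 1 RPKM for the presence of a mark, H3K4me3 alone was present at 59 and 46 members in MEFs, 39 and 27 for pre-iPSCs and 49 and 25 for iPSCs. These were 83.1% and 64.8%, 54.9% and 38.03%, and 69.01% and 35.2% of the members in the same order, against 81.1% and 70.1%, 58.3% and 43.7%, and 61.7% and 44.3% of expressed genes. H3K27me3 alone was present at 0 and 1, 3 and 2, and 1 and 0 members. In pre-iPSCs that was 4.23% and 2.82% of members, against 0.355% and 0.508% of expressed genes and 1.53% and 1.39% of all genes. In MEFs it was 0% and 1.41%, against 0.427% and 1.04% of expressed genes. In iPSCs it was 1.41% and 0%, against 0.339% and 0.290%. Both marks together were present at 1 member in 1 iPSC library (1.41%, against 0.484% of expressed genes) and at none in the other libraries.

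Between MEFs and iPSCs, 2 members gained H3K4me3 within 500 bp and 1 lost it, against 4.85% of genes that gained and 1.18% that lost. Smoc1 rose by a log2 change of 1.53 (SE 0.48, adjusted p = 0.0348) and Atp1b1 by 1.08 (SE 0.36, adjusted p = 0.0471). Smoc1 was at 0.880 and 0.255 RPKM for MEFs, 0.981 and 0.519 for pre-iPSCs and 1.24 and 1.25 for iPSCs, and Atp1b1 at 1.62 and 0.764 RPKM for MEFs, 1.04 and 1.103 for pre-iPSCs and 2.36 and 1.51 for iPSCs. For Smoc1 both iPSC libraries lay above both MEF libraries, whereas for Atp1b1 they overlapped, and the call of Atp1b1 was lost in each of the 11 alternatives. Hsd17b11, a lipid-droplet dehydrogenase, fell by a log2 change of -1.24 (SE 0.37, adjusted p = 0.0255). It was at 2.84 and 2.29 RPKM for MEFs, 1.103 and 0.909 for pre-iPSCs and 0.682 and 0.986 for iPSCs. These 3 calls were close to the threshold. DESeq2 made none of them. In no fit that left out 1 library were both gains called, and over all genes fewer gained in each of these fits. The loss was called without iPSC replicate 2 and without either pre-iPSC library but not without the others.

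In a window of 1000 bp either side of the TSS, an alternative, all 71 members were tested for H3K4me3 among 17700 genes. Between MEFs and pre-iPSCs 0 members rose and 3 fell, against 3.05% and 0.797% of all genes tested. Genes from this wider window were named after their values were seen. Dlc1 fell by a log2 change of -1.26 (SE 0.30, adjusted p = 0.00901), Car13 by -1.53 (SE 0.41, adjusted p = 0.0237) and Hsd17b11 by -0.83 (SE 0.25, adjusted p = 0.0486). Dlc1 was at 2.34 and 1.37 RPKM for MEFs, 0.460 and 0.714 for pre-iPSCs and 0.776 and 0.724 for iPSCs, so that the loss was not undone in iPSCs. Car13 was at 1.35 and 0.700 RPKM for MEFs, 0.337 and 0.195 for pre-iPSCs and 0.559 and 0.724 for iPSCs, with both iPSC libraries above both pre-iPSC libraries. DESeq2 called 0 of the 3, and 11 of the 71 members and 3466 of the 17700 genes had an unadjusted p below 0.05 by edgeR. Both pre-iPSC libraries lay below the 4 others in 15 members (21.1%), against 10.1% of all genes, 11.1% of expressed genes and 21.01% of the 990 genes that were lower in both pre-iPSCs and iPSCs than in MEFs. The opposite order was seen in 0 members, against 2.05% of all genes. Between MEFs and iPSCs 3 members rose (Krt18, Rpl39l and Smoc1) and 4 fell (Dlc1, Hsd17b11, Nsdhl and Pkp2), against 9.74% and 4.01%, with 0 by DESeq2.

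**Figure D3:**
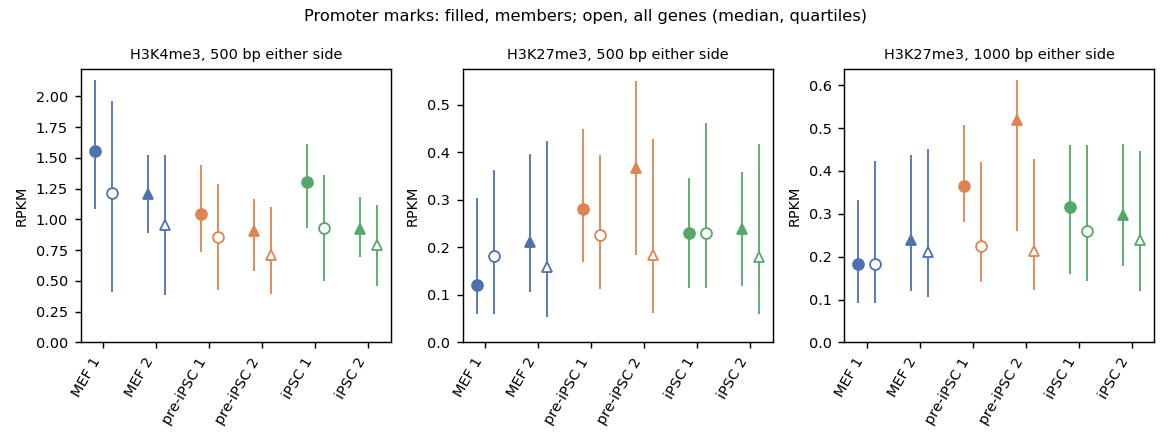
Promoter H3K4me3 within 500 bp of the TSS and H3K27me3 within 500 bp and 1000 bp, in RPKM, for each of the 6 libraries of a mark. Filled symbols are the medians of the 71 members, open symbols those of all 20156 genes, and bars are quartiles; the members' H3K27me3 medians were highest in the 2 pre-iPSC libraries, 0.366 and 0.519 RPKM in the wider window.

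H3K27me3 was scarce at the members' promoters in every cell type, but stood highest in pre-iPSCs. The members' median within 500 bp was 0.121 and 0.212 RPKM for MEFs, 0.281 and 0.366 RPKM for pre-iPSCs and 0.230 and 0.239 RPKM for iPSCs, against 0.182 and 0.159 RPKM, 0.225 and 0.183 RPKM, and 0.230 and 0.179 RPKM over all genes. Within 1000 bp it was 0.182 and 0.238 RPKM for MEFs, 0.366 and 0.519 RPKM for pre-iPSCs and 0.317 and 0.298 RPKM for iPSCs. At 19 of the 71 members (26.8%) both pre-iPSC libraries lay above all 4 other libraries within 500 bp. The share was 6.97% over all genes, 7.48% over expressed genes, 7.54% over expressed genes with high-CpG promoters and 12.2% over the genes that were lower in both pre-iPSCs and iPSCs. The opposite order, both pre-iPSC libraries below the others, was seen in 0 members, against 5.57% of all genes. Within 1000 bp the count was 23 (32.4%), against 7.01% of all genes, 7.80% of expressed genes, 8.13% of expressed high-CpG genes and 13.4% of the genes lower in both. The opposite order was seen in 2, Klhl13 and Sc4mol, against 6.97%. These counts used all 71 members with no filter on reads, and were the same when libraries were scaled to the reads in the calls. The windows shared 10 genes: Basp1, Car13, Dse, Fabp3, Mogat2, Mxra7, Mycl1, Pdlim1, Rpl39l and Spsb1, or 52.6% of the narrower list and 43.5% of the wider one.

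At 9 members the marks moved in opposite directions within 1000 bp, with both pre-iPSC libraries below the 4 others for H3K4me3 and above them for H3K27me3, against 0.873% of all genes. They were Arhgap10, Basp1, Car13, Gng2, Khdrbs3, Mogat2, Mxra7, Spsb1 and Srxn1, that is 60% of the members with that order of H3K4me3 and 39.1% of those with that order of H3K27me3. Over all genes, 176 had both orders, among 2038 with that order of H3K4me3 and 1412 with that order of H3K27me3. The share over the genes lower in both pre-iPSCs and iPSCs was not computed.

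The edgeR test within 500 bp had little to work with, because 11 of the 71 members passed the minimum of reads, among 4436 genes. Between MEFs and pre-iPSCs 0 rose and 0 fell, against 1.49% and 0.834% of all genes tested; 5 of the 11 members and 729 of the 4436 genes had an unadjusted p below 0.05, and DESeq2 called 0 members. Between pre-iPSCs and iPSCs 0 members were called, against 0.0902% of genes that rose, with 0 members and 375 genes at an unadjusted p below 0.05, and 0 members by DESeq2. Between MEFs and iPSCs 0 rose and 1 fell, against 2.73% and 1.22%. This was Sgk1, a serum- and glucocorticoid-induced kinase, with a log2 change of -2.49 (SE 0.66, adjusted p = 0.0156). It was at 0.908 and 0.900 RPKM for MEFs, 0.281 and 0.428 for pre-iPSCs and 0.115 and 0.179 for iPSCs, so MEFs were highest and pre-iPSCs stood between, while its RNA was at 43.9 and 20.8 FPKM for MEFs, 5.602 and 8.08 for pre-iPSCs and 24.1 and 44.4 for iPSCs. DESeq2 did not call it.

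Within 1000 bp of the TSS, 56 members passed the minimum among 10407 genes. A gene can pass through the cell type in which it is high, so the counts over the members that passed describe those members and say nothing of the others. A fit without that minimum, added after the data had been seen, tested all 71 members among 19833 genes. With the minimum, 13 members rose between MEFs and pre-iPSCs and 1 fell, against 5.01% and 3.09% of all genes tested (edgeR, adjusted p below 0.05), and 28 of the 56 members and 2212 of the 10407 genes had an unadjusted p below 0.05. DESeq2 called 1 of the members, Mxra7 (adjusted p = 0.0365), where it called 0.336% of genes as higher and 0.0961% as lower. The median log2 change was 0.76 over the members that passed and -0.012 over all genes tested. Without MEF replicate 1 it was 0.63 and 0.015, and without pre-iPSC replicate 2 it was 0.59 and -0.033, in the same order. Fewer members and fewer genes at large were called as higher in both of these fits. In the fit with no minimum 10 of the 71 members rose and 1 fell, against 1.87% and 1.84% of all genes, with 24 of the 71 members and 3067 of the 19833 genes at an unadjusted p below 0.05. The changes of single members from MEFs to pre-iPSCs that follow are from that fit (edgeR). Mxra7 rose by a log2 change of 3.86 (SE 0.60, adjusted p = 4.06e-06). It had, in the order MEFs, pre-iPSCs and iPSCs, 1 and 2, 30 and 19, and 15 and 6 reads, which is 0.0303 and 0.0530 RPKM for MEFs, 0.844 and 0.580 for pre-iPSCs and 0.432 and 0.179 for iPSCs. Its pre-iPSC libraries were the highest, iPSCs lay between and MEFs were almost without the mark. Summed over the libraries of a cell type, the ratio of pre-iPSCs to MEFs was 16.9 for Mxra7, with a 95% interval of 5.46 to 84.9 (exact Clopper-Pearson, counting error only).

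Dse, which makes the iduronic acid of dermatan sulphate, rose by 3.69 (SE 0.71, adjusted p = 0.000191) with 1 and 1, 13 and 17, and 3 and 8 reads in the same order, a ratio of 15.5 (95% interval 3.94 to 134). Fmnl3 rose by 3.11 (SE 0.60, adjusted p = 0.000191) with 1 and 3, 16 and 22, and 3 and 13 reads. Basp1 rose by 2.56 (SE 0.57, adjusted p = 0.00196) with 2 and 3, 14 and 18, and 3 and 7 reads. Spsb1, a SOCS-box adaptor of a ubiquitin ligase, rose by 2.40 (SE 0.46, adjusted p = 0.000168). It was at 0.0606 and 0.212 RPKM for MEFs, 0.788 and 0.855 for pre-iPSCs and 0.374 and 0.358 for iPSCs, and its RNA at 15.9 and 13.7 FPKM for MEFs, 1.899 and 1.198 for pre-iPSCs and 6.28 and 4.62 for iPSCs. Arhgap10 rose by 2.30 (SE 0.53, adjusted p = 0.00247) and was at 0.0606 and 0.132 RPKM for MEFs, 0.422 and 0.672 for pre-iPSCs and 0.259 and 0.388 for iPSCs. In each of these genes the pre-iPSC libraries lay above all others. The other members that rose in that fit were Nkain1, Vash2, Gng2 and Srxn1. Dlc1, Pkdcc, Nt5dc2 and Kdelr3 were called with the minimum of reads but not without it.

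**Figure D4:**
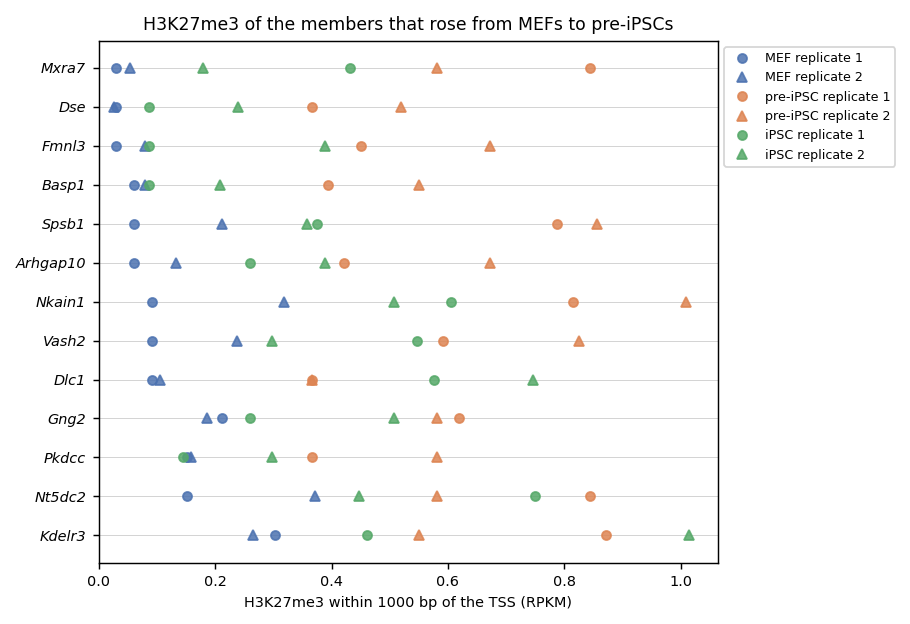
H3K27me3 within 1000 bp of the TSS (RPKM, linear axis) of the 13 members that rose between MEFs and pre-iPSCs in the fit with the minimum of reads, in order of log2 change. Each point is 1 library, coloured by cell type, circles for replicate 1 and triangles for replicate 2; Mxra7 is at 0.0303 and 0.0530 RPKM for MEFs and 0.844 and 0.580 RPKM for pre-iPSCs.

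Few genes of any kind were called for H3K27me3 between pre-iPSCs and iPSCs. Between pre-iPSCs and iPSCs 0 members rose and 1 fell within 1000 bp, against 0.663% and 0.135% of all genes tested. The member was Nt5c2, a cytosolic nucleotidase, with a log2 change of -1.44 (SE 0.38, adjusted p = 0.0440, edgeR), and DESeq2 called 0. Nt5c2 was not called in the fit with no minimum (adjusted p = 0.0607, edgeR), where 0 members rose and 0 fell, against 0.192% and 0.0555% of all genes, and 26 of the 71 members and 1711 of the 19833 genes had an unadjusted p below 0.05. With the minimum and all libraries, 20 of the 56 members tested and 1190 of the 10407 genes were at an unadjusted p below 0.05 (edgeR). The median log2 change was then -0.43 over those 56 members and -0.00096 over all genes tested. Leaving out MEF replicate 1 or 2 moved it to -0.48 over the members tested in each case, with -0.0075 and -0.0064 over all genes tested. In both fits more members and more genes at large were called as lower. Between MEFs and iPSCs 5 members rose (Dlc1, Mxra7, Siah2, Nkain1 and Kdelr3) and 4 fell, among them Atp1b1, Tcfl5 and Nt5c2, against 7.33% and 3.88%. Dlc1 rose by a log2 change of 2.64 (SE 0.49, adjusted p = 0.000116) and was at 0.0909 and 0.106 RPKM for MEFs, 0.366 and 0.367 for pre-iPSCs and 0.576 and 0.746 for iPSCs, so iPSCs carried at least as much of the mark as pre-iPSCs. DESeq2 called 0 of the 9, and the fit with no minimum gave 3 members that rose and 4 that fell, against 3.12% and 2.95%. Slc38a4, with the largest dip in RNA, was at 0.303 and 0.450 RPKM for MEFs, 0.506 and 0.886 for pre-iPSCs and 0.374 and 0.418 for iPSCs, so pre-iPSCs were highest but the libraries of the cell types were close. Sc4mol was at 0.121 and 0.0794 RPKM for MEFs, 0.0281 and 0.0611 for pre-iPSCs and 0.346 and 0.179 for iPSCs and had its lowest values in pre-iPSCs, from 1 and 2 reads. Its dip in RNA was thus not accompanied by this mark.

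H3 itself, the measure of nucleosome occupancy, stood apart in replicate 1 of pre-iPSCs and of iPSCs. Within 500 bp of the TSS all 71 members were tested among 18900 genes, and 0 genes were called in each of the 3 comparisons (edgeR, and DESeq2 called 0 members). At an unadjusted p below 0.05 there were 4 members and 319 genes between MEFs and pre-iPSCs, 0 members and 123 genes between pre-iPSCs and iPSCs, and 2 members and 395 genes between MEFs and iPSCs. The members' median was 0.167 and 0.153 RPKM for MEFs, 0.892 and 0.165 RPKM for pre-iPSCs and 0.504 and 0.184 RPKM for iPSCs. Replicate 1 of pre-iPSCs and of iPSCs accounted for the high values. Leaving out pre-iPSC replicate 2, so that replicate 1 stood alone and was assumed to vary like the other cell types, gave 2 members as higher and 0 as lower in pre-iPSCs than in MEFs, among 228 genes that were higher and 2903 that were lower of 19255. Leaving out pre-iPSC replicate 1 gave 0, and moved the members' median log2 change between MEFs and pre-iPSCs from 0.49 to 0.20. Leaving out iPSC replicate 1 moved that between MEFs and iPSCs from 0.35 to 0.18, with 0 members and 62 of 19021 genes at an unadjusted p below 0.05 and 0 called. At 0 of the 71 members did both pre-iPSC libraries lie above or below the 4 others, against 1.63% and 2.04% of all genes, nor within 1000 bp, against 1.59% and 1.79%.

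Around the TSS, H3 reads from 150 bp upstream to 50 bp downstream were set against a flank of 1000 bases that begins at -2000 bp, summed over the members. The ratio was 0.424 and 0.443 for MEFs, 1.30 and 0.358 for pre-iPSCs and 0.676 and 0.409 for iPSCs. A depleted TSS was therefore seen in 5 of the 6 libraries. Over all genes the ratio was 0.583 and 0.624, 1.33 and 0.544, and 0.895 and 0.566 in the same order, and over expressed genes 0.354 and 0.390, 0.928 and 0.302, and 0.639 and 0.342. In replicate 2 of each cell type, the members' ratio was between that of expressed genes and that of all genes, and was lowest in pre-iPSCs, as it was in the other sets. At the position of the first nucleosome, 51 to 250 bp downstream, the members' ratio was 0.565 and 0.560 for MEFs, 1.76 and 0.401 for pre-iPSCs and 1.33 and 0.574 for iPSCs, against 0.727 and 0.749, 2.30 and 0.634, and 1.71 and 0.734 over all genes.

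**Figure D5:**
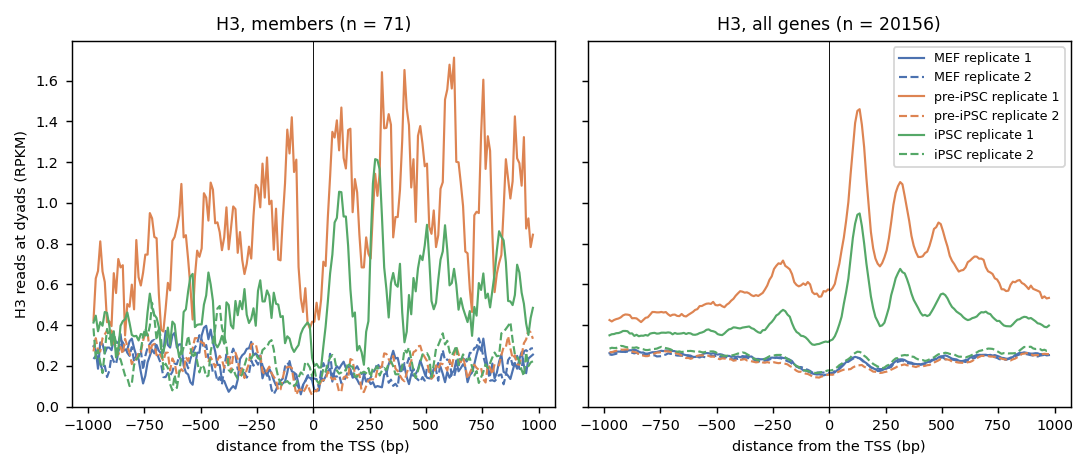
H3 reads at nucleosome centres around the TSS, in RPKM, as a mean over the 71 members (left) and all 20156 genes (right), by distance from the TSS in bp. Each line is 1 library; replicate 1 of pre-iPSCs and of iPSCs run above the other 4, which dip at the TSS in both panels.

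H3K9me3 had 1 library per cell type, so no test was possible. The members' median within 500 bp was 0.197 RPKM in MEFs, 0.187 RPKM in pre-iPSCs and 0.265 RPKM in iPSCs. In 6 members (8.45%) the pre-iPSC value was at least 2 times both others, against 4.91% of all genes. In 7 (9.86%) it was at most 0.5 times both others, against 14.8%. Within 1000 bp the median was 0.164 RPKM in MEFs, 0.281 RPKM in pre-iPSCs and 0.265 RPKM in iPSCs, against 0.197, 0.218 and 0.265 RPKM over all genes. Whether the median was higher in MEFs or in pre-iPSCs thus depended on the window.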

How the data were processed

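The authors deposited 2 tables of FPKM values, 1 library of each cell type in each table, and per library a list of nucleosome calls, each with its position, its read count and a fuzziness score, which was not used. The submitters' processing notes name TopHat2 2.0.4, Cufflinks 2.0.2 and Bowtie 1.0.1, and the build was mm9. The number of reads behind an FPKM value is not in the tables. Members were found from the FPKM values as deposited, with a pseudocount of 1 FPKM. The rule, the gene lists and the role groups were chosen with earlier results of these data known. Genes were named as the 20 highest scores, members of the gene lists, the 3 largest rises and falls called per mark, the edges of the rule, the 5 highest and 5 lowest ratios of iPSC to MEF, and the 5 highest iPSC levels. Some genes named by this rule are not reported here.

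Expression was tested with limma 3.58.1 on log2(FPKM + 1), so the changes of low genes are understated, over expressed genes (averaging 0.5 FPKM or more). Promoter reads were taken from calls whose centres lay within 500 bp of the TSS (1000 bp as an alternative), and tested with edgeR 4.0.16 (quasi-likelihood, TMM, filterByExpr) in R 4.3.3, with DESeq2 1.42.0 as an alternative. P-values were adjusted by Benjamini-Hochberg over all genes tested. RPKM values were scaled to the uniquely mapped reads the study lists. The scripts were tested on simulated data. The study calls the 2 libraries of a cell type biological replicates, and the labels do not say which clone or culture each came from, so p-values measure the spread between these libraries. Reads had no molecular identifiers.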

Additional observations from a re-analysis of the deposited data

How the results depend on the processing

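The number of members was sensitive to the rule: 217 with a pseudocount of 0.1 FPKM, 111 with 0.5, 43 with 2, 204 with a fold of at least 1.5 and 21 with a fold of at least 3, and 149 to 337 from a table alone. It was 46 and 36 after the feeder subtractions. For expression between MEFs and iPSCs (5 members higher, 11 lower), a pseudocount of 0.1 FPKM gave 3 and 5, no filter 3 lower, quantile normalization 8 and 4, and leaving out a library 0 to 5 higher and 0 to 13 lower. Upper-quartile scaling moved the members' median iPSC level to 94.8% of MEF. For H3K4me3 within 500 bp between MEFs and iPSCs (2 higher, 1 lower), calls of at least 2 reads gave 0 higher, no filter 1 higher and DESeq2 0 and 0, and leaving out a library gave 0 to 1 of each. Within 1000 bp 4 were lower, and 3 were lower between MEFs and pre-iPSCs, with 0 by DESeq2. Leaving out a library there gave 0 to 3 higher and 0 to 4 lower between MEFs and iPSCs, and 0 to 4 lower between MEFs and pre-iPSCs. For H3K27me3 within 500 bp, no filter gave 1 member higher in each comparison with MEFs, calls of at least 2 reads and DESeq2 gave 0 lower between MEFs and iPSCs, and leaving out a library gave 0 to 1. Within 1000 bp the counts were 13 higher and 1 lower between MEFs and pre-iPSCs, 5 and 4 between MEFs and iPSCs, and 1 lower between pre-iPSCs and iPSCs. DESeq2 gave 1 and 0, 0 and 0, and 0. No filter gave 10 and 1, 3 and 4, and 0. Leaving out a library gave 7 to 14 and 0 to 1, 1 to 5 and 0 to 4, and 0 to 3. For H3, leaving out a library gave 0 to 2 members higher between MEFs and pre-iPSCs, and the TSS ratio of pre-iPSCs was 0.358 without replicate 1. The cause was not tested. Leaving out a library also changed the calls over all genes, and the counts of members in this paragraph are given without that share. The wider window with DESeq2, no filter, the block or a library left out, and the feeder subtraction, were chosen after seeing the data.

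Replicate numbers were checked for pairing by the correlation of deviations from the cell type means. For MEFs with pre-iPSCs, MEFs with iPSCs and pre-iPSCs with iPSCs it was 0.35, -0.20 and 0.11 in RNA, -0.05, -0.03 and 0.12 in H3K4me3, 0.00, -0.05 and -0.01 in H3K27me3 and -0.02, 0.02 and 0.73 in H3, so in no assay did libraries of the same number deviate together in every pair of cell types, although those of pre-iPSCs and iPSCs did in H3. With a replicate block, H3K4me3 within 500 bp gave 1 member higher and 1 lower between MEFs and iPSCs. H3K27me3 within 1000 bp gave 14 higher and 1 lower between MEFs and pre-iPSCs, 6 higher and 2 lower between MEFs and iPSCs, and 0 lower between pre-iPSCs and iPSCs. Without the table term, expression gave 5 and 9.

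RNA depth was not examined. H3K27me3 reads per promoter were few, so small differences between cell types were not detectable.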
